A study of Mus musculus with 12 samples.

Results

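Cytosolic ribosomal protein genes were followed in sorted mouse thymocytes of 2 genotypes at 3 stages. The genes were taken by symbol, as Rpl or Rps with a number and an optional a, l or x, plus Rplp0, Rplp1, Rplp2 and Rpsa, without the Rps6k kinases and without pseudogenes. Of 83 such symbols in the RefSeq gene table, 46 had an array probe set assigned to that gene alone, among 18194 genes measured in all. These 46 comprise 24 genes of the large subunit and 22 of the small subunit, and each was represented by its brightest probe set. A further 28 genes, Rpl5 and Rplp1 among them, were read only by probe sets that carried several symbols, and 9, with Rps27a among them, were not analysed here.

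RNA was hybridised to 12 Affymetrix arrays, 2 for each of wild-type (WT) DN3, DN4 and DP cells and IkL/L DN3, DN4 and DP cells. IkL/L mice are homozygous for a hypomorphic allele of Ikzf1, which encodes the zinc finger transcription factor Ikaros. Thymocytes at DN3 rearrange the T cell receptor beta chain, those at DN4 have passed beta selection and proliferate, and DP cells carry both CD4 and CD8. Cells of 3 mice were pooled for sorting, strain and age are not given in the sources used here, and no label states whether the arrays of a group came from separate pools. The p-values below therefore measure only the spread between these arrays.

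Ribosomal proteins assemble with ribosomal RNA in the nucleolus into a small subunit, which decodes the mRNA, and a large subunit, which joins amino acids. Their mRNAs are among the most abundant of a cell, and most begin with a pyrimidine tract, the 5′ TOP motif, through which mTORC1 and the RNA-binding protein LARP1 control their translation. Myc raises transcription of many of them in growing cells. In thymocytes the proliferative burst after beta selection is a phase of high protein synthesis, and most DP cells are small and no longer cycle.

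The starts of 8 genes named in the results below are shown here, since the TOP tract lies at the first bases of the mRNA. Each is a window of 30 bases, 15 before and 15 after the RefSeq start (build GRCm38.p6), printed 5′ to 3′ on the gene's strand. Capitals mark a C followed by at least 4 pyrimidines that begins within 5 bases of the annotated start.
Rpl14, chr9:120571502-120571531, plus strand: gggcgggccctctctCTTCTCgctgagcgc
Rps6, chr4:86857353-86857382, minus strand: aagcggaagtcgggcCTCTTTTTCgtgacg
Rps18, chr17:33955651-33955680, minus strand: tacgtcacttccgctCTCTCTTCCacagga
Rps2, chr17:24720048-24720077, plus strand: aggcagtcgagatctcgcgCTTCTTggagc
Rpl13a, chr7:45128731-45128760, minus strand: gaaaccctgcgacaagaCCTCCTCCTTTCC
Rpl12, chr2:32961697-32961726, plus strand: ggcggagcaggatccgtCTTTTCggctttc
Rps19, chr7:24884577-24884606, plus strand: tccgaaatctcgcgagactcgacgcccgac
Rpl10a, chr17:28328550-28328579, plus strand: gctctatttgagcgcatgcgcaaagcgctc
The first 6 carry the tract and the last 2 do not in these windows, nor in the other windows listed for Rps19 and Rpl10a. The 8 were picked and do not give the share of genes with the tract. Rpl37, Rps25 and Rpsa, also named below, have none in their windows. Of the 40 genes with a start window, 19 (47.5%) had the tract, against 21.2% of 27025 mouse genes.

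In windows of 300 bases around the start, from 250 before to 50 after, letters were searched on both strands, and matches of different motifs can overlap. CGGAAG, the core bound by ETS factors, was in 29 of 40 ribosomal protein genes (72.5%) and in 18.8% of all genes. GGGCGG, the GC box of Sp factors, was in 22 (55%) against 38.2%. TGGGAA, the core bound by Ikaros, was in 10 (25%) against 28.3%. CACGTG, the E-box of Myc and Max, was in 4 (10%) against 8.09%, GATGGC, the core bound by YY1, in 7 (17.5%) against 15.9%, and TATAAA in 5 (12.5%) against 15.7%. These matches describe the letters in the windows and were not tested.

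All values below are log2 signals of RMA, a method that corrects background, normalizes the arrays and summarises the probes of a set. Ribosomal protein genes sat at the top of the scale: 33 of the 46 were in the brightest 1% of probe sets. The brightest values of the arrays were 14.53 to 14.72, and the brightest ribosomal protein value was 14.28, for Rps18 in WT DN3 cells. For 18 genes the mean lay within 1 log2 unit of the array maximum, and 10 of these were within it on every array. Those averaging above 14 were Rpl41, Rps14, Rps18, Rps28, Rps29, Rps4x and Rps7. A probe set near its ceiling shows differences of RNA compressed, so a small difference there is one of signals. Of the tested genes, 10 averaged under 12 (Rpl12, Rpl14, Rpl27a, Rpl37, Rpl39, Rpl39l, Rps25, Rps27, Rps27l and Rps6).

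Of the 46 genes, 43 had at least 2 arrays at or above the array median and were tested, within a fit of 11649 genes. The 3 that did not pass were Rps16 (mean 3.53), Rpl3l (3.61) and Rps4l (4.50). Rpl3l is a paralog of striated muscle. The own probe set of Rps16, a core protein of the small subunit, was at background in every group (3.31 to 3.72), so it gave no reading of that mRNA.

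Ikzf1 was lower in IkL/L cells at each stage, by 0.63 to 0.70 (limma, adjusted p 0.00454 to 0.0101). The thymocyte genes Cd3e, Cd3g, Ptcra and Thy1 were above the median on all 12 arrays. The mean of 4 DP markers went from 7.70 to 7.78 in WT DN3 cells up to 12.48 to 12.68 in WT DP and 12.34 to 12.64 in IkL/L DP cells. The mean of 4 DN3 markers went from 10.60 to 10.71 in WT DN3 cells down to 6.37 to 6.44 in WT DP cells, and in IkL/L cells it was 7.33 to 7.76 at DN4 and 7.11 to 7.62 at DP. Of the DN3 markers, the Notch target Dtx1 was 9.63 in IkL/L DP against 7.10 in WT DP cells. At DP Notch3 was 9.14 against 8.31 and Hes1 5.88 against 5.24, while Il2ra was 4.81 against 4.96. Of the thymocyte genes, Ptcra, the pre-TCR alpha chain, was 10.04 in IkL/L DP against 8.41 in WT DP cells. Of the measured markers of other cells, 2 of 3 for B cells (Cd79a, Ms4a1) and 1 of 2 for erythroid cells (Hba-a1) were below the median on all arrays. So were 2 of 6 for myeloid cells (Itgam, Mpo), 1 of 4 for dendritic cells (Itgax) and 1 of 4 for epithelium (Foxn1). Above it on all arrays were Lyz2 and Csf1r of myeloid cells, H2-Aa and Flt3 of dendritic cells, Epcam and Krt5 of epithelium and Sox13 of gamma-delta cells. The mean of 6 myeloid markers was 4.54 to 6.47 per array, highest in IkL/L DN3 cells (5.21 to 6.47). The mean of 3 NK and gamma-delta markers was 7.11 to 7.19 in WT DN3, 6.45 to 6.70 in WT DN4 against 5.47 to 5.54 in IkL/L DN4, and 4.70 to 5.03 in WT DP cells, with Klrd1 below the median on all arrays.

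The main event in these genes was the step from DN4 to DP in WT cells. Of the 43 tested, 23 fell and 1 rose, Rpl12, at an adjusted p under 0.05 in limma, which called 57% of all tested genes in this step, 33.2% lower and 23.8% higher. The median difference was -0.38, or 76.9% of the DN4 signal, against -0.15 over all genes. Both WT DP arrays lay below both WT DN4 arrays for 29 genes and above them for 3, against 46.8% and 30.8% of all genes. In bulk RNA, fewer cells of a type and less RNA per cell cannot be told apart, and normalization removes any change that all mRNAs share.

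**Figure D1:**
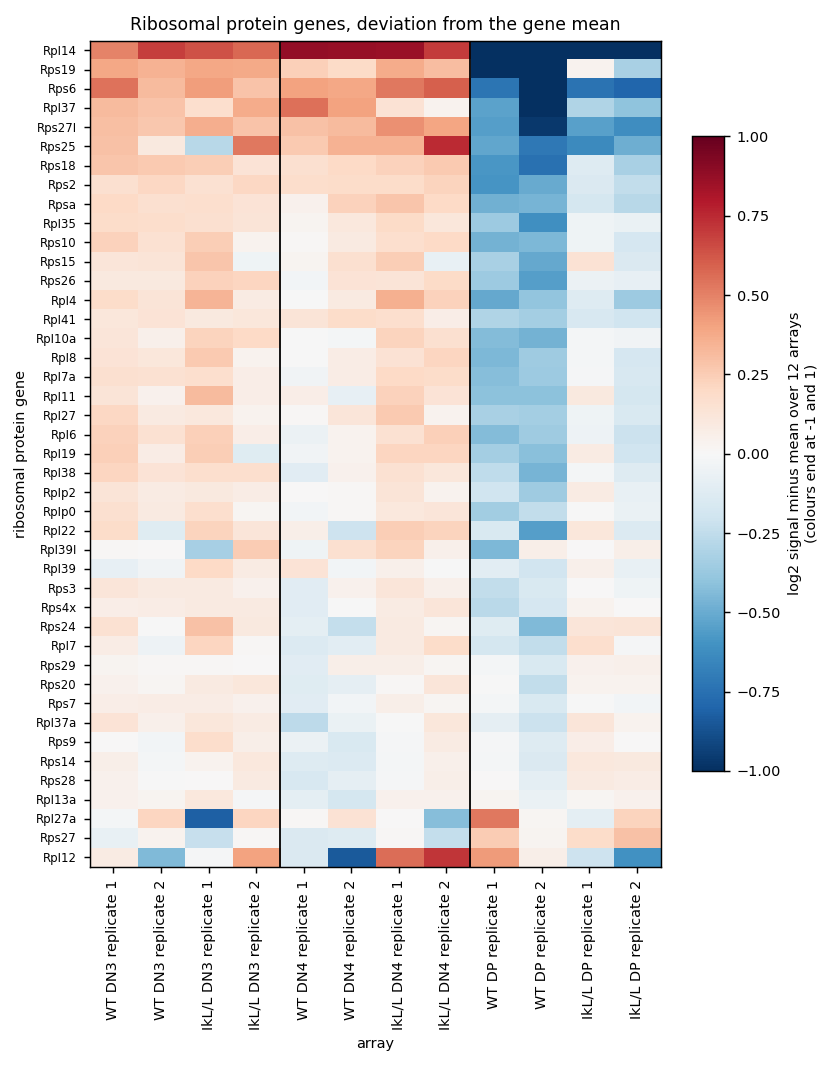
Deviation of each of the 43 tested ribosomal protein genes (rows, ordered by the WT difference between DP and DN4) from its mean over 12 arrays, in log2 units, for each array (columns, grouped by stage with black lines; colours end at -1 and 1). The WT DP arrays are the lowest for most genes, with medians of -0.33 and -0.36, and the IkL/L DP arrays are at -0.01 and -0.13.

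The deepest fall was that of Rpl14, a large subunit protein. Its signal was 10.48 and 10.47 in WT DN4 cells and 8.07 and 8.02 in WT DP cells, a difference of -2.43 (SE 0.13, adjusted p = 6.54e-08), which left 18.5% of the DN4 signal. In IkL/L cells it was 10.47 and 10.30 at DN4 and 8.19 and 8.42 at DP, a difference of -2.08 (SE 0.13, adjusted p = 3.61e-07). The 4 DP arrays thus lay far below the DN arrays of both genotypes, which began at 10.09.

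Rps6, the small subunit protein that S6 kinases phosphorylate, was 10.67 and 10.66 in WT DN4 cells and 9.55 and 9.06 in WT DP cells. The difference was -1.36 (SE 0.16, adjusted p = 1.83e-05). In IkL/L cells the values were 10.80 and 10.87 at DN4 and 9.53 and 9.48 at DP, a difference of -1.33. The DP signal was 38.9% of that at DN4 in WT and 39.8% in IkL/L cells.

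Rps27l, a paralog of Rps27 and a known p53 target, fell by 1.06 in WT and by 1.01 in IkL/L cells. It was 11.54 and 11.56 at WT DN4, 10.70 and 10.29 at WT DP, 11.70 and 11.65 at IkL/L DN4, and 10.70 and 10.63 at IkL/L DP. Rps25, which takes part in initiation on internal ribosome entry sites, fell by 0.92 in WT and by 1.11 in IkL/L cells. At DP the arrays of the genotypes overlapped for Rps6, Rps27l and Rps25 and not for Rpl14. For these 4 genes the difference between genotypes in the step did not pass the test (limma, adjusted p 0.399 to 0.962).

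Rpl37 and Rps19 also fell by more than 1 log2 unit in WT cells. Rpl37 of the large subunit was 10.16 and 10.02 at WT DN4 and 9.08 and 8.58 at WT DP, a difference of -1.26 (SE 0.16), and in IkL/L cells 9.76 and 9.65 at DN4 and 9.31 and 9.21 at DP, a difference of -0.44 (SE 0.16) whose call was lost in 11 of 25 alternatives. Its step differed between genotypes by 0.82 (adjusted p = 0.133), short of the threshold. Rps19 is described with the genotypes below.

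The largest falls among the genes nearest the ceiling were smaller. Rps18 went from 14.16 and 14.20 at WT DN4 to 13.42 and 13.26 at WT DP, a difference of -0.84 (SE 0.12, adjusted p = 0.000109). Rps2, from 14.13 and 14.14 to 13.37 and 13.45, fell by 0.73, and Rpsa, which also serves as a laminin receptor precursor, from 13.95 and 14.14 to 13.43 and 13.44, by 0.61. All 3 fell in IkL/L cells too, by 0.47, 0.40 and 0.47.

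**Figure D2:**
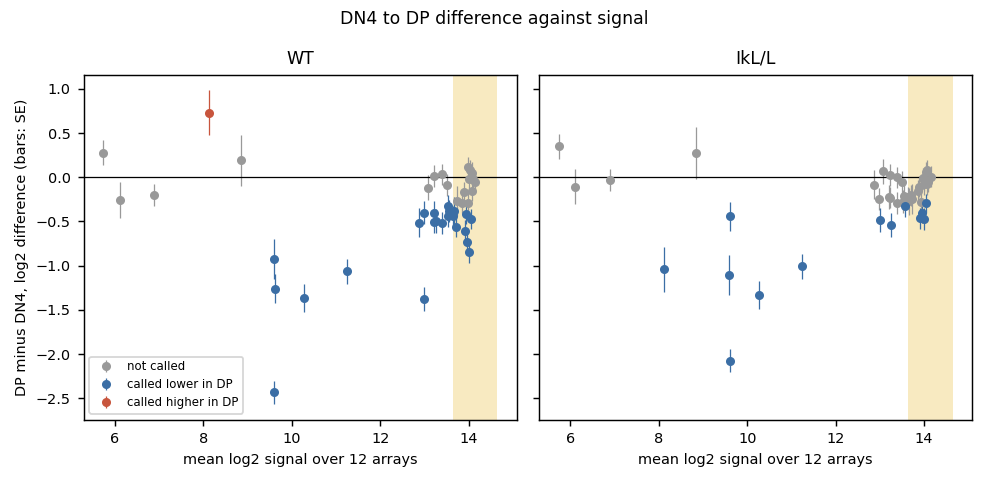
Difference between DP and DN4 (log2, with its SE) against the mean log2 signal over 12 arrays for the 43 tested ribosomal protein genes in WT (left) and IkL/L cells (right). The shaded band is the last log2 unit below the mean array maximum. The largest falls, that of Rps19 in WT apart, are in genes below 12, and in the band the lowest value is -0.84, that of Rps18 in WT.

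The median difference in WT cells was more negative in dimmer genes, but the share of genes that fell was not larger in the dimmest. Among the 18 genes within 1 unit of the array maximum, 7 fell in WT cells and the median difference was -0.28. Among the 15 genes between these and a mean of 12, 11 fell and the median was -0.40. Among the 10 genes below 12, 5 fell, Rpl12 rose, and the median was -0.59, with values from -2.43 to 0.73. By the suffix of the probe set name, the median was -0.12 for 15 genes with x, -0.41 for 16 with a or s and -0.33 for 12 with none. Neither grouping was tested. The subunits gave similar counts, with 13 of 23 large subunit genes and 10 of 20 small subunit genes lower.

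Several bright genes did not pass the test in the step, while Rpl41 and Rps18, which also average above 14, fell in WT cells. Rps29, the brightest, was 14.04 and 14.21 at WT DN4 and 14.13 and 13.997 at WT DP. Rps7, Rps14, Rps28, Rps20, Rpl13a, Rps9 and Rpl37a differed by -0.02 to 0.12 in WT cells. Of these, Rps9 and Rpl37a, with means of 13.40 and 13.23, lay further than 1 log2 unit below the array maximum. Dimmer probe sets of Rps20 and Rps3, picked after their values were seen, gave other values. The probe sets of Rps20 at 13.997 and 13.73 differed by -0.02 and -0.02, while those at 5.44 and 4.89 fell by 1.00 and 1.78 (limma over 25009 probe sets, adjusted p = 0.000453 and 7.73e-05). The array medians were 5.14 to 5.22, so both dim probe sets of Rps20 were close to background. Of the probe sets of Rps3, a small subunit protein at the mRNA entry channel, the one at 13.89 differed by -0.17 the one at 9.28 fell by 1.43, and the one at 5.22 differed by -0.11. In IkL/L cells the same dim probe sets of Rps20 fell too (-1.44 and -1.65), as did the one of Rps3 at 9.28 (-1.07).

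Probe sets of one gene did not always point the same way. Rpl14, Rpl37, Rps25, Rps19, Rpl10a and Rpl12 had 1 probe set of their own each, so this could not be seen for them. Of 20 genes with over 1 tested probe set, all of a gene's probe sets had the same sign in the WT step for 10, and in the IkL/L step for 16. For Rps10, 5 probe sets between 12.2 and 13.4 differed by -0.12 to -1.13 in WT cells, and 1 at 6.80 rose by 1.18 (adjusted p = 0.0161). For Rps18 and Rpl41 the brightest probe sets with no suffix letter in their names were dim, at 5.48 and 7.58, and differed by 0.06 and 0.27.

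The 48 other tested probe sets of these genes gave 23 lower and 3 higher in the WT step, with a median of -0.43, where 27.6% of all tested probe sets were lower and 27.5% higher. In the IkL/L step 12 were lower and none higher, with a median of -0.25 (21.6% and 16.8% of all). Probe sets shared with other symbols, which name no gene, gave 59 lower and 2 higher of 103 in WT, with a median of -0.42, and 36 lower and 1 higher in IkL/L cells. Between genotypes at DP, 2 of these 103 were higher, with a median of 0.28, and none of the 48 was (2.08% of all probe sets).

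The Gapdh control moved with the step. The excess of the 3′ over the 5′ Gapdh control probe set, a measure of RNA integrity and of amplification length, was 2.01 to 2.73 on the 8 DN arrays, 3.02 and 3.37 on the IkL/L DP arrays and 3.40 and 3.83 on the WT DP arrays. That of actin was also higher on the WT DP arrays (2.86 and 2.29) than on the WT DN4 arrays (1.74 and 1.93). In IkL/L cells the actin values overlapped, with 1.93 and 2.39 at DN4 and 2.26 and 2.64 at DP. On the DN3 arrays actin was 1.92 to 2.86. With the Gapdh difference as a covariate, an alternative chosen after seeing the data, 3 of the 23 falls remained called in WT, those of Rpl14 (-2.41), Rps19 (-1.05) and Rps25 (-1.65), and calls over all genes went from 57% to 18.3%. In the same fit 4 of 13 remained in IkL/L cells, those of Rpl14, Rps25, Rps27l and Rps6, where 25.3% of all genes were called. With the actin difference as the covariate, 14 falls were called in WT and 11 in IkL/L cells, where 51.4% and 48.0% of all genes were called. The covariate goes with the stage on these arrays, so its part in the falls and that of the stage cannot be told apart.

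In IkL/L cells the same step gave 13 falls and no rise among the 43 genes, where limma called 26% of all genes lower, 19.5% higher and 45.5% in all. The median was -0.22, or 85.8% of DN4, against -0.04 over all genes. After a second quantile normalization the median of the ribosomal protein genes was -0.07. Both IkL/L DP arrays lay below both DN4 arrays for 28 genes and above them for 4, against 40.7% and 33.1% of all genes. The 12 genes that fell in both genotypes were Rpl14, Rpl37, Rpl4, Rpl41, Rpl6, Rps18, Rps19, Rps2, Rps25, Rps27l, Rps6 and Rpsa. The call was made in WT cells alone for 11 (Rpl10a, Rpl11, Rpl19, Rpl27, Rpl35, Rpl38, Rpl7a, Rpl8, Rps10, Rps15 and Rps26), which does not show that the genotypes differ. The count in IkL/L cells rests on single arrays, with 4 falls without IkL/L DP replicate 2 and 7 without IkL/L DN4 replicate 1, and that in WT cells was 15 without WT DN4 replicate 2. The calls lost most often were those of Rpl41 (17 of 26 alternatives) and Rpl6 (15 of 25) in IkL/L and of Rpl19 (17 of 26) and Rpl38 (15 of 25) in WT cells.

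The test of that difference, the interaction of genotype with the step, called 1 of 43 genes, Rpl12, which was lower, where 0.987% of all genes were called, 0.661% higher and 0.326% lower. The median difference of the steps, IkL/L minus WT, was 0.11, against 0.04 over all genes. It was above 0 for 35 genes, against 54.6% of all genes. Rps19 had the next largest difference, 0.89 (SE 0.19, adjusted p = 0.0507).

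Genotypes were then compared at each stage. In DP cells 2 ribosomal protein genes were higher in IkL/L, Rps19 and Rpl10a, and none lower (limma; 5.98% of all genes called, 4.36% higher and 1.62% lower). The median difference was 0.25, or 119% of WT, against 0.03 over all genes, and 41 of 43 differences were above 0, against 54.4% of all genes. Other lists had like medians here: 0.26 for translation factors and other TOP mRNAs, 0.22 for ribosome biogenesis factors and 0.23 for mitochondrial ribosomal proteins. The DN3 marker Dtx1 and the thymocyte gene Ptcra, given above, were also higher in IkL/L than in WT DP cells, while the DN3 marker Il2ra was not. The Gapdh 3′ excess was lower in IkL/L DP cells. The part of these in the difference was not tested. A second quantile normalization lowered the median of the ribosomal protein genes from 0.25 to 0.11. Both IkL/L DP arrays lay above both WT DP arrays for 34 genes and below them for 1, against 26% and 18% of all genes. At an unadjusted p under 0.05 there were 18 (41.9%), against 18.4% of all genes. The 23 falls of the WT step and this comparison share the WT DP arrays, so they are not independent.

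**Figure D3:**
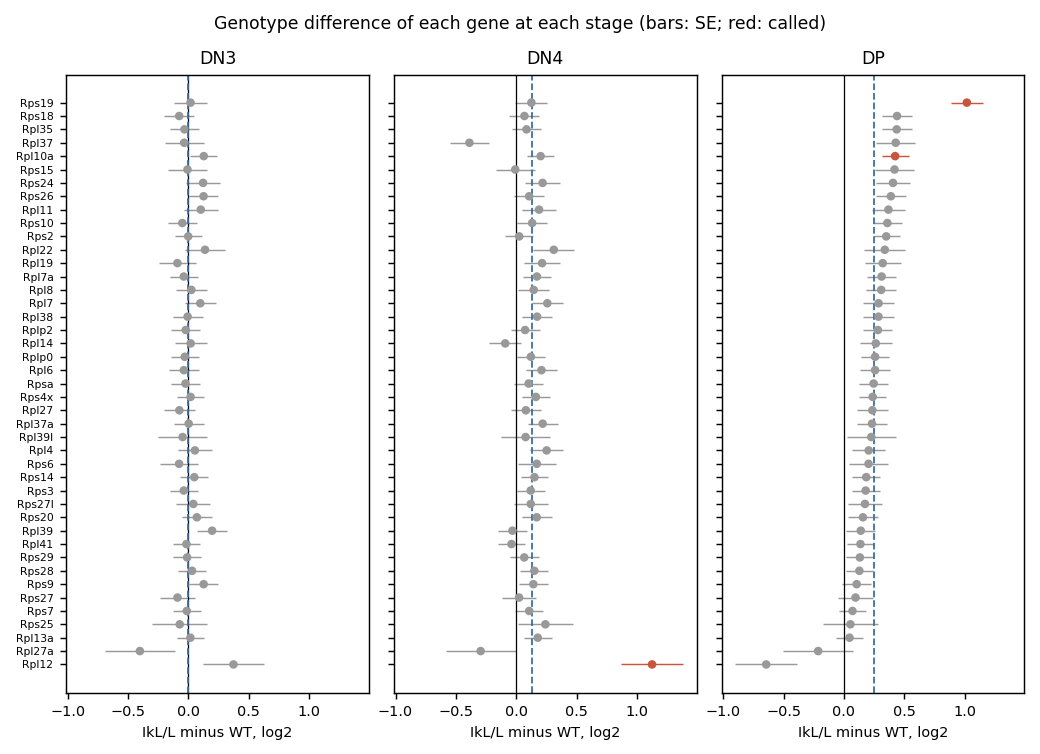
Difference between IkL/L and WT cells (log2, with its SE) for each of the 43 tested ribosomal protein genes, ordered by the DP difference, in DN3, DN4 and DP cells; the dashed line is the median and red marks a called gene. The median is -0.01 at DN3, 0.13 at DN4 and 0.25 at DP. A second quantile normalization turned the DN4 median to -0.04 and lowered the DP median to 0.11.

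Rps19, a small subunit protein needed for maturation of 18S ribosomal RNA and mutated in Diamond-Blackfan anaemia, was the clearest. It was 11.86 and 11.81 on the WT DP arrays and 13.03 and 12.68 on the IkL/L DP arrays, a difference of 1.02 (SE 0.13, adjusted p = 0.000598), or 203% of WT. In DN3 and DN4 cells all 8 arrays lay between 13.19 and 13.39. Rps19 thus fell by 1.38 from DN4 to DP in WT cells and by 0.49 in IkL/L cells, the latter call being lost without IkL/L DN4 replicate 1 or IkL/L DP replicate 2. Its DP difference passed under all 25 alternatives tried, from 0.84 to 1.20. Rps19 had 1 probe set of its own, so alternatives that averaged the probe sets or took the next brightest kept its signals. Leaving out a DN array could change the spread but not the DP difference. A contrast added after seeing the data, the genotype difference in DP minus that in DN3, was 1.00 for Rps19 (adjusted p = 0.0198), the only gene of the 43 called in it (1.73% of all genes). The same contrast for DN4 minus DN3 called none, with none at an unadjusted p under 0.05 (limma, 0.0515% of all genes).

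Rpl10a, a large subunit protein at the L1 stalk, was 13.21 and 13.17 in WT DP cells and 13.62 and 13.60 in IkL/L DP cells. The difference was 0.42 (SE 0.11, adjusted p = 0.0453), and it lost its call in 17 of 25 alternatives while staying between 0.25 and 0.45. Among those settings were the omission of any 1 of the 10 arrays outside IkL/L DN3. It was above WT at DN3 and DN4 too, by 0.13 and 0.20, and the IkL/L arrays did not overlap the WT arrays at any stage. Rps18 and Rpl35 differed by 0.44 each at DP (adjusted p = 0.0613 and 0.0616). Rps18 was 13.42 and 13.26 in WT and 13.88 and 13.68 in IkL/L cells. With a prior that follows signal and is robust to outliers, 8 genes were called higher at DP (757 of 11649 genes were called in that fit, 561 of them higher), Rpl7a, Rps10, Rps2 and Rps26 besides these 4.

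**Figure D4:**
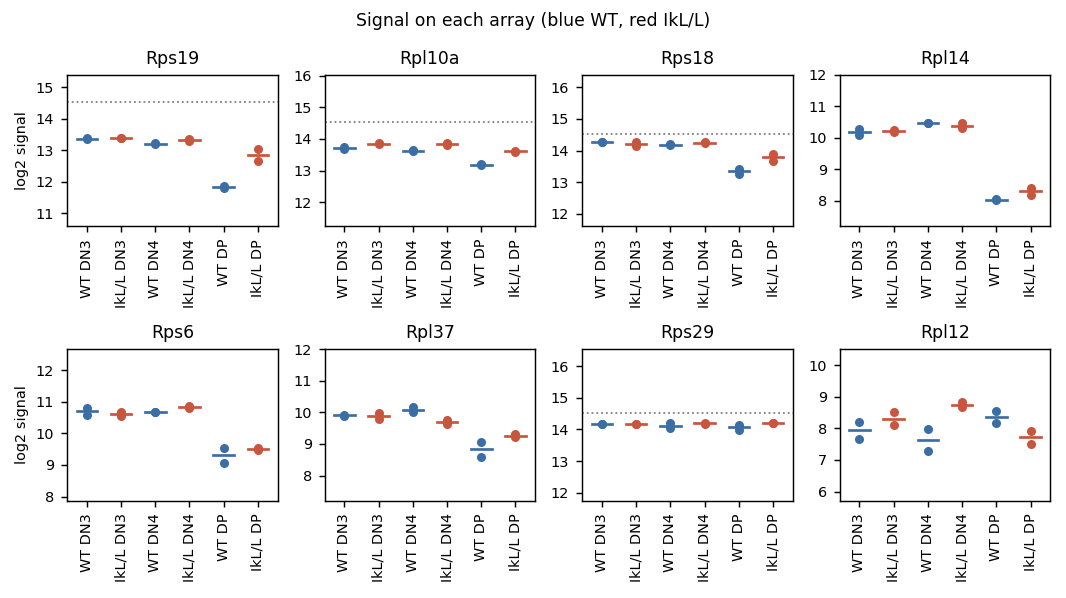
Log2 signal of 8 ribosomal protein genes on each array (points) with group means (lines), WT in blue and IkL/L in red; every panel spans the same log2 range, and the dotted line is the lowest array maximum, 14.53. Rps19, Rpl10a and Rps18 are higher in IkL/L than in WT DP cells, Rpl14 and Rps6 are low in DP cells of both genotypes, Rps29 stays near the ceiling and Rpl12 is highest in IkL/L DN4 cells.

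In DN4 cells 1 gene was called higher in IkL/L, Rpl12, and none lower (6.88% of all genes called, 4.4% higher and 2.48% lower). The median was 0.13 against 0.00 over all genes, and 37 differences were above 0, against 49.7% of all genes. But a second quantile normalization moved the median of all genes by over 0.1 and that of the ribosomal protein genes to -0.04. The arrays did not overlap for 30 higher and 3 lower genes, against 32% and 28.6% of all genes. Of the 48 other probe sets, 4 were higher and 1 lower at DN4 (2.28% and 0.888% of all probe sets). In DN3 cells limma called none of 43, and none had an unadjusted p under 0.05 (4.28% of all genes called, 2.08% higher and 2.21% lower). The median was -0.01, and the smallest adjusted p was 0.484. The DN3 arrays did not overlap for 6 higher and 4 lower genes, against 19.7% and 26.7% of all genes.

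Averaged over stages, Rps19 and Rpl10a were higher in IkL/L cells by 0.39 and 0.25 (limma, adjusted p = 0.00528 and 0.0214), and none was lower, where 15.5% of all genes were called, 9.01% higher and 6.49% lower. The Rps19 average passed in all 25 alternatives. That of Rpl10a was lost in 8 of 25 and ranged from 0.11 to 0.26. It was lost without either WT DN3 array, WT DN4 replicate 2, either IkL/L DN4 array or IkL/L DP replicate 1. A random block of same-numbered arrays within a genotype lost it too. Of the 43 averages, 42 were above 0, against 47.7% of all genes. Their median was 0.13, which a second quantile normalization lowered to 0.02. From DN3 to DN4 no gene was called in either genotype, and none had an unadjusted p under 0.05, where limma called 9.25% of all genes in WT (1.55% higher and 7.7% lower) and 4.4% in IkL/L cells (1.2% higher and 3.19% lower). In WT the arrays did not overlap for 3 higher and 25 lower genes, against 25.3% and 36.2% of all genes, and in IkL/L cells for 8 and 6, against 20.5% and 23.8%. The medians were -0.11 in WT, which a second quantile normalization turned to 0.00, and 0.02 in IkL/L cells.

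Rpl12, a protein at the base of the large subunit stalk, went its own way on a dim probe set. It was 7.97 and 7.28 in WT DN4 cells and 8.67 and 8.83 in IkL/L DN4 cells, a difference of 1.13 (SE 0.26, adjusted p = 0.0224). In DP cells the order turned, with 8.54 and 8.17 in WT and 7.91 and 7.51 in IkL/L cells, a difference of -0.64 that did not pass (adjusted p = 0.197). The step was 0.73 in WT and -1.04 in IkL/L cells, and the interaction was -1.77 (SE 0.36, adjusted p = 0.0446). That interaction kept its sign in 26 alternatives (-2.12 to -1.42) and lost its call in 15, with adjusted p up to 0.204. Among those 15 were the omission of either WT DN3 array, WT DN4 replicate 2, WT DP replicate 1, or any of the IkL/L DN4 and DP arrays. The DN4 call was lost without WT DN4 replicate 2 or without either IkL/L DN4 array, and over all probe sets in place of genes its adjusted p was 0.0629 and that of the interaction 0.134. This probe set lay 6.53 below the array maximum.

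The remaining genes named for their roles gave these values. Rpl22, whose loss is known to arrest alpha beta thymocytes, was 13.92 and 13.61 in WT DN3, 13.79 and 13.52 in WT DN4 and 13.58 and 13.19 in WT DP cells, and 13.85 to 13.95, 13.96 to 13.98 and 13.60 to 13.85 in the same IkL/L stages. Its genotype differences of 0.14, 0.31 and 0.34 did not pass the test at any stage. Rpl11, which binds Mdm2 under nucleolar stress, fell by 0.40 in the WT step (adjusted p = 0.027) from 13.28 and 13.14 to 12.81 and 12.80. That call was lost in 7 of 25 alternatives, among them the omission of WT DN4 replicate 1 or of either WT DP array, and the value turned to 0.097 with the Gapdh covariate.

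The stalk proteins Rplp0 and Rplp2, which recruit elongation factors, differed by -0.29 and -0.29 in the WT step (adjusted p = 0.0544 and 0.0587) and by 0.26 and 0.28 between genotypes at DP. The X-linked Rps4x was 13.80 to 14.19 on all arrays, with no call. Rpl39l, a paralog known from testis, was 5.66 to 6.36 and was called in no comparison. Rps4l, below the filter, was 5.19 and 5.05 in WT DN3 cells and 4.50 and 4.06 in IkL/L DN3 cells, close to background.

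Genes of the same pathway were set beside these. Ribosome biogenesis factors fell in most cases in the step. In WT cells 33 of 36 were lower (median -1.67), against 33.2% of all genes. In IkL/L cells 35 of 36 were lower (median -1.43), against 26% of all genes. These factors include the RNA polymerase I subunit Polr1b (-2.98 in WT and -2.36 in IkL/L cells), the box C/D protein Nop58 (-2.68 and -2.64), and in WT cells Rrp12 (-3.02) and Nop16 (-2.93). Mitochondrial ribosomal proteins fell in 62 of 73 cases in WT (median -0.96) and in 58 of 73 in IkL/L cells (median -0.73), led by Mrpl17 (-2.31 and -1.79). With the Gapdh covariate 27 biogenesis factors and 31 mitochondrial ribosomal proteins were still lower in WT cells, where 1251 of 11649 genes were called lower.

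**Figure D5:**
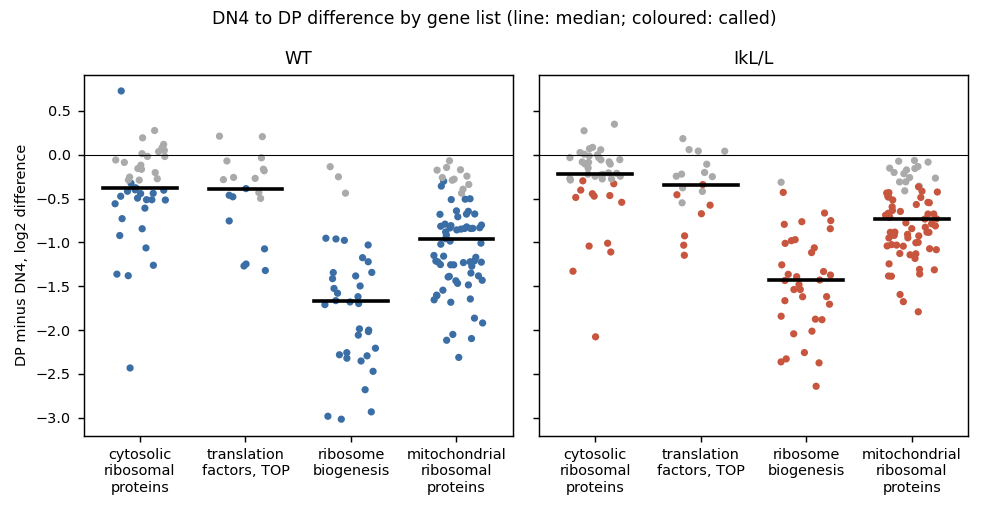
Difference between DP and DN4 (log2) of each tested gene in 4 lists, in WT (left) and IkL/L cells (right); coloured points were called at an adjusted p under 0.05, grey points were not, and lines are medians. Cytosolic ribosomal proteins (-0.38 in WT and -0.22 in IkL/L cells) and translation factors with other TOP mRNAs (-0.39 and -0.34) have medians nearer 0 than ribosome biogenesis factors (-1.67 and -1.43) and mitochondrial ribosomal proteins (-0.96 and -0.73). Of the cytosolic genes, 18 average within 1 log2 unit of the array maximum, and the 10 below 12 have medians of -0.59 and -0.73. The part of the ceiling in these medians was not tested.

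Translation factors and other mRNAs with a TOP tract had a median close to that of the ribosomal proteins. Of 19 tested, 8 fell in WT cells (42.1%, against 33.2% of all genes) and 7 in IkL/L cells (36.8%, against 26%). Among those that fell were the histone chaperone Nap1l1, the nucleolar protein Npm1 and the elongation factor subunit Eef1d (-1.32, -1.27 and -1.25 in WT). In DP cells 3 of the 19 were higher in IkL/L than in WT (15.8%, against 4.36% of all genes). Naca, a chaperone at the ribosome exit, was 11.91 and 11.93 in WT and 12.98 and 12.69 in IkL/L DP cells, a difference of 0.91 (adjusted p = 0.00295). Npm1 and Nap1l1 were higher by 0.62 and 0.51. Fau, which encodes a ribosomal protein fused to a ubiquitin-like domain, was called in no comparison (-0.28 in the WT step).

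Among 16 regulators, 8 fell and 3 rose in the WT step, and 6 fell and 1 rose in the IkL/L step. Over all genes 33.2% fell and 23.8% rose in the WT step, and 26% fell and 19.5% rose in the IkL/L step. Myc fell by 4.06 (log2) in WT cells, from 9.99 and 10.16 at DN4 to 5.82 and 6.20 at DP, and also in IkL/L cells (-3.20), from 10.40 and 10.40 to 6.87 and 7.52. At DP it was higher in IkL/L cells by 1.18 (SE 0.23, adjusted p = 0.00871), with no overlap between arrays. Larp1, which binds the TOP tract, fell in both genotypes (-1.75 in WT and -1.47 in IkL/L cells), as did Eif4ebp1, the translation inhibitor that mTORC1 phosphorylates (-1.63 and -1.48). Sp1 rose by 0.92 in the WT step and was higher in IkL/L DN4 cells by 0.70 (adjusted p = 0.0384).

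The tract was as frequent among the genes that fell as among the rest. Of the 22 genes called lower in the WT step that have a start window, 11 (50%) carry the tract, as do 8 of the other 16 tested (50%). CGGAAG was in 18 of the 22 and in 10 of the 16, and TGGGAA in 2 of the 22 and in 7 of the 16. GGGCGG was in 14 and 7, GATGGC in 2 and 5, TATAAA in 1 and 4 and CACGTG in 3 and 1. None of these splits was tested, and both groups are small. Rps19 and Rpl10a, the genes called higher in IkL/L DP cells, lack the tract in the windows printed above. Of the 3 deepest falls in WT cells, Rpl14 (-2.43) and Rps6 (-1.36) carry it in their windows. Rps19 (-1.38) has none in the windows of its annotated starts, and a tract at other starts was not searched for.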

How the data were processed

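The deposited values are log2 signals that the authors made with RMA, per the submitters' processing notes (version not given in the sources used here). Per the labels' protocols, RNA was labelled after 2 amplification cycles in 3 series that no label ties to an array, so the labelling series was not tested. Start windows are from RefSeq tables of GRCm38.p6.

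The platform annotation gave 34958 of the 45099 probe sets a single symbol, 932 more than 1 and 9209 no symbol. The probe set of highest mean stood for its gene. Genes reaching the array median on 2 or more arrays entered the test (11649). Contrasts came from limma 3.58.1 (R 4.3.3), fitted with a mean for each of 6 groups (6 residual and 5.67 prior degrees of freedom), and p-values were adjusted over these genes by Benjamini-Hochberg, with calls under 0.05. The fit was tested on simulated data. The number of arrays limits the precision.

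Genes were named by rule: per genotype contrast up to 12 called members each way whose arrays did not overlap, per step and for the interaction the 6 largest called each way, members listed for their roles, up to 4 called genes per companion list, and Ikzf1. Others were picked after their values were seen. Members and lists were chosen with earlier results of these data known. Alternatives were 14 settings, 1 of them (the Gapdh covariate) added after seeing the data, and 12 single arrays left out.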

Additional observations from a re-analysis of the deposited data

Results flagged for a closer look

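The genotype difference of the step from DN4 to DP was called for Rpl12 (limma, -1.77). Both WT DP arrays lay above both WT DN4 arrays, and both IkL/L DP arrays lay below both IkL/L DN4 arrays. This call was lost in 15 of 26 alternatives. The difference between the genotype effects in DP and DN3 cells was called for Rps19 (limma, 1.00), with Rps19 higher in IkL/L cells at DP and level between genotypes at DN3 (0.02).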

How the results depend on the processing

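Counts are of the 43 genes called by limma and medians are log2. Leaving out 1 array gave 0 to 1 calls for genotype at DN4, 1 to 3 at DP, 1 to 5 averaged, 15 (without WT DN4 replicate 2) to 24 for the WT step to DP (median -0.40 to -0.34), 4 (without IkL/L DP replicate 2) to 13 for the IkL/L step (median -0.24 to -0.13), 0 to 1 from DN3 to DN4 in IkL/L cells, and 0 to 2 for the interaction (median 0.067 to 0.17). The mean of all probe sets gave 3 calls at DN4, 4 averaged and 20 in the IkL/L step. The next brightest probe set gave 1 at DP, 8 in the IkL/L step, 0 in the interaction and a WT median of -0.41. Probe sets with no suffix gave 4 calls at DN4 (median 0.17), 1 at DP (0.14), 1 averaged, 1 from DN3 to DN4 in WT (-0.035), 13 in the WT step (-0.29), 2 in the interaction, and IkL/L medians of 0.17 and -0.33 for the steps to DN4 and DP; the WT step turned to 0.27 for Rpl41, 1.18 for Rps10 and 0.065 for Rps18. No filter gave 1 at DN3. Centring arrays on their medians gave a DN3 median of -0.055 and 1 call at DP. A second quantile normalization gave medians of -0.041 at DN4, 0.11 at DP, 0.020 averaged, 0.00378 from DN3 to DN4 in WT, -0.30 and -0.0666 in the WT and IkL/L steps to DP, and 1 call at DP and 1 averaged. A trended robust prior gave 8 at DP, 10 averaged and 2 in the interaction. Array weights gave 1 at DP and 0 in the interaction, and the arrays of a contrast alone 1 at DP. A random block of same-numbered arrays within a genotype gave 1 averaged and 2 in the interaction. The actin covariate gave 4 at DP, 4 averaged, 1 from DN3 to DN4 in IkL/L cells and 14 in the WT step (-0.29). The Gapdh covariate gave 1 at DP, 3 in the WT step (-0.26), 4 in the IkL/L step and 0 in the interaction, and turned the WT step to 0.10 for Rpl11, 0.027 for Rpl19 and 0.026 for Rps15. The cause was not tested for any of these. Across these results 382 values stayed within their limits and 86 moved; of single genes' values 900 kept direction and call, 185 lost the call and 6 changed sign.

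With the replicate number as a replicate block, 1 gene was called at DP, 4 averaged, 24 in the WT step to DP and 11 in the IkL/L step. Same-numbered arrays deviated with correlations of -0.09 at DN3, -0.10 at DN4 and 0.06 at DP between genotypes, 0.15 to 0.32 between WT stages and 0.015 to 0.49 between IkL/L stages. Same-numbered arrays of a genotype, entered as a random block, had a correlation of 0.15. No label says whether they share a pool.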

Other observations

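Dim probe sets of ribosomal protein genes were higher in IkL/L than in WT DN4 cells while bright probe sets of the same genes were not called. For Rpl41 the probe sets at 7.58 and 8.84 were higher by 1.05 and 0.98 (limma over 25009 probe sets, adjusted p = 0.0148 and 0.0219, where 2.28% were called higher and 0.888% lower), and those at 14.05 and 14.01 differed by -0.04 and -0.04. For Rps9, which lies near the mRNA entry site of the small subunit, the probe set at 7.30 was higher by 1.39 (adjusted p = 0.0383), and those at 13.08 and 13.40 differed by 0.12 and 0.14. Rps24 had a probe set at 5.93 that was higher by 1.11 and another at 5.85 that differed by -0.59 (adjusted p = 0.0489), with the 4 brighter ones between 0.04 and 0.22. In the step to DP the dim probe sets of Rpl41 and Rps9 fell in IkL/L cells (-1.06, -0.91 and -1.46). These genes were singled out after their values were seen.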
